A study of Mus musculus with 36 samples.

Results

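Glutathione transferases and target genes of the transcription factor Nrf2 were followed in mouse liver across 9 groups of 4 arrays. The genes were Gsta2, Gsta3, Gsta4, Gstm1, Gstm3, Gstp1, Gstt2, Nqo1, Srxn1 and Txnrd1. They were taken by symbol, as every probe set that the platform annotation assigns to 1 of these genes alone, a rule that uses no measured value. This gave 10 of 18193 named genes and 20 of 45101 probe sets. All 20 passed the filter on dim probe sets, and 1 further probe set, which names Gsta2 beside other genes, was not used. Where a gene had several probe sets, the one with the highest mean over the arrays stood for it.

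The study measured total liver RNA of female mice that were 6 to 8 weeks old and had been fasted for 4 to 5 hours, in lines used to study neural tube defects. Pax3 mice were heterozygous for Pax3Sp2H and Apob mice for Apobtm1Unc, and both were set against C57BL/6J wild type mice (B6). Cd-Het mice were heterozygous for Lrp6Cd and were set against wild type mice of that line (Cd-WT). Ct mice came from the randomly bred closed ct colony, in which every animal is taken as a ct/ct homozygote, and were set against CBA/CaJ mice (CBA), a different stock. Lp-Het mice were heterozygous for Vangl2Lp and were set against wild type mice of that line (Lp-WT). The labels call the Pax3 and Cd-Het lines responsive to dietary folic acid and the Apob, Ct and Lp-Het lines resistant to it. The mutations are in the germline, so every liver cell carries them, and each group consisted of 4 arrays labelled as biological replicates.

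Glutathione transferases join glutathione to reactive compounds, such as products of lipid peroxidation, drugs and carcinogens, and so prepare them for export from the cell. Hepatocytes hold them in large amounts, and they are grouped into classes named alpha, mu, pi and theta. Many of them, together with the quinone reductase Nqo1, the sulfiredoxin Srxn1 and the thioredoxin reductase Txnrd1, are controlled by Nrf2. This factor is degraded with the help of Keap1 in unstressed cells and accumulates when electrophiles or oxidants modify Keap1. It then binds antioxidant response elements beside its targets.

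The sequence just upstream of the start of 4 of these genes is shown because their signals stood furthest apart on single arrays (Gsta2, Gstm3 and Srxn1) or because it holds matches to the element that Nrf2 binds (Gstp1). RefSeq windows (build GRCm38.p6) of 250 bases upstream were at hand for 8 of the 10 genes. They were searched on both strands for TGACNNNGC, the core of the element, and for its variant TGAGNNNGC. The 2 motifs cannot match the same bases on the same strand, and capitals mark the matches. The Gsta2 window lies at chr9:78347146-78347395, that of Gstm3 at chr3:107969175-107969424 and that of Gstp1 at chr19:4037913-4038162, all on the minus strand, and that of Srxn1 at chr2:152105274-152105523 on the plus strand. Each window is written 5′ to 3′ along its gene. The last bases of the Gsta2 window lie inside the annotated gene, which reaches 78347192, so this window precedes an inner start.
Gsta2: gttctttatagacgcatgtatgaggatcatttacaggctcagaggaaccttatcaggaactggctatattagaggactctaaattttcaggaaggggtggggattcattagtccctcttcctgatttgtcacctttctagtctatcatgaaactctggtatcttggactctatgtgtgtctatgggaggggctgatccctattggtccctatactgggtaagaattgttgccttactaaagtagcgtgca
Gstm3: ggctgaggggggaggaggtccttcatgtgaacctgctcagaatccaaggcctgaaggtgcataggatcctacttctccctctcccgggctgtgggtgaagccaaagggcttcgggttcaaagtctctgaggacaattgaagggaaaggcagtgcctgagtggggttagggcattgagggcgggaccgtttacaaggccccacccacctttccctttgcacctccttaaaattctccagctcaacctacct
Srxn1: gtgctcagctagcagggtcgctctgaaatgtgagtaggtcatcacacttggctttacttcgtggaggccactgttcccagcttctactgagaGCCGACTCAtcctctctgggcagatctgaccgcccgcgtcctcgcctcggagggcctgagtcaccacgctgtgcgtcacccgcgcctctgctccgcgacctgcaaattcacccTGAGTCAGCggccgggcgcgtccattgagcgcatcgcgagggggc
Gstp1: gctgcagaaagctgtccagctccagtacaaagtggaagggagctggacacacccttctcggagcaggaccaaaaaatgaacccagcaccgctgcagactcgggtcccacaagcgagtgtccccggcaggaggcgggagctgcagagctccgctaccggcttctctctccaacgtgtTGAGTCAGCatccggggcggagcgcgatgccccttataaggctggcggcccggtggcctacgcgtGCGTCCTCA

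The windows of Srxn1 and Gstp1 held 2 matches each. In Srxn1 the plus strand match TGAGTCAGC lay 45 to 37 bases before the start and a minus strand match 158 to 150 bases before it. In Gstp1 the same 9 letters lay 74 to 66 bases before the start, and a minus strand match 9 to 1 bases before it. Those of Gsta2 and Gstm3 held none. Gsta3 had TGACATTGC 121 to 113 bases before its start, and 1 of the windows of Txnrd1 had a minus strand match 92 to 84 bases before its start. Gstm1 and Nqo1 had none in the windows searched, which says only that these letters are not there. Of 32851 mouse windows of this length, 10.2% held TGACNNNGC, 14.4% held TGAGNNNGC and 23.0% held either. Windows for Gsta4 and Gstt2 were not used here.

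Signals were deposited MAS5 values, whose trimmed mean was 500 on every array. A level is comparable between arrays for 1 probe set, and not between probe sets. The arrays CBA replicate 4 and Ct replicate 3 stood apart in RNA quality. Their 3′ to 5′ signal ratios for Gapdh were 52.5 and 1.72, against 0.729 to 0.956 on the other 34 arrays. Their median correlations with the other arrays were 0.845 and 0.901, against at least 0.927. On another array, Pax3 replicate 3, several of the genes stood apart, as described below. Results that rest on these arrays are given with and without them. Hepatocyte markers were bright on every array, and the summed signal of the 6 measured ones was 197310 to 422530. In whole liver, fewer cells of a type and less RNA per cell cannot be told apart.

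**Figure D1:**
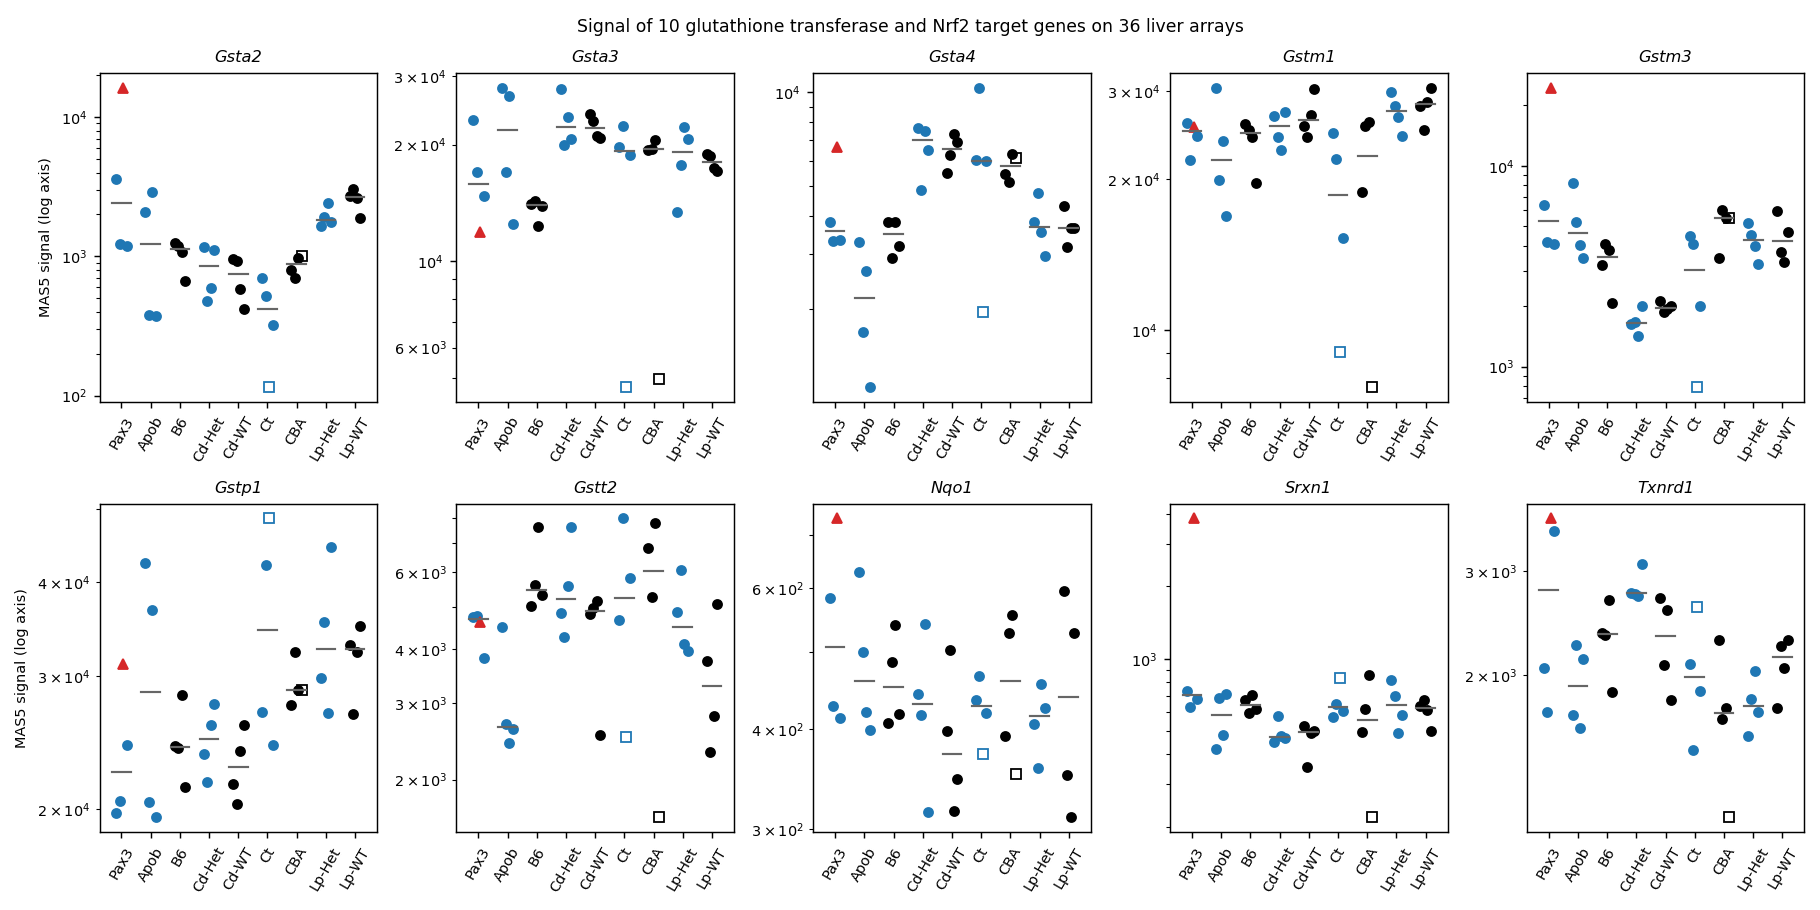
MAS5 signal (log axis) of each gene on each array, by group; blue points are mutant arrays, black points wild type arrays, and the grey line is the median of 4. The red triangle is Pax3 replicate 3 and open squares are CBA replicate 4 and Ct replicate 3. The red triangle is the highest of all 36 values for Gsta2, Gstm3, Nqo1, Srxn1 and Txnrd1.

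No gene of the group was called in any of the 5 mutant lines. Differences were tested on the log2(signal + 23.1) scale with limma across 13188 genes, and a call required an adjusted p (Benjamini-Hochberg) under 0.05. The count was 0 of 10 in Pax3, Cd-Het, Apob, Ct and Lp-Het mice, where 0, 0, 0.538, 6.65 and 0.0303% of all tested genes were called. At an unadjusted p under 0.05, 2, 0, 2, 2 and 0 of the 10 remained, where 5.32, 2.09, 10.9, 24.1 and 7.07% of all tested genes did. The median log2 difference over the 10 genes was 0.22 in Pax3, 0.09 in Cd-Het, -0.08 in Apob, -0.04 in Ct and -0.01 in Lp-Het mice, and over all tested genes it lay between -0.03 and 0.02. The test of a difference among the 5 mutant effects called 0 of the 10, against 2.46% of all genes, and its lowest adjusted p was 0.157, for Gstm3. Pax3 and Apob mice share the B6 controls.

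**Figure D2:**
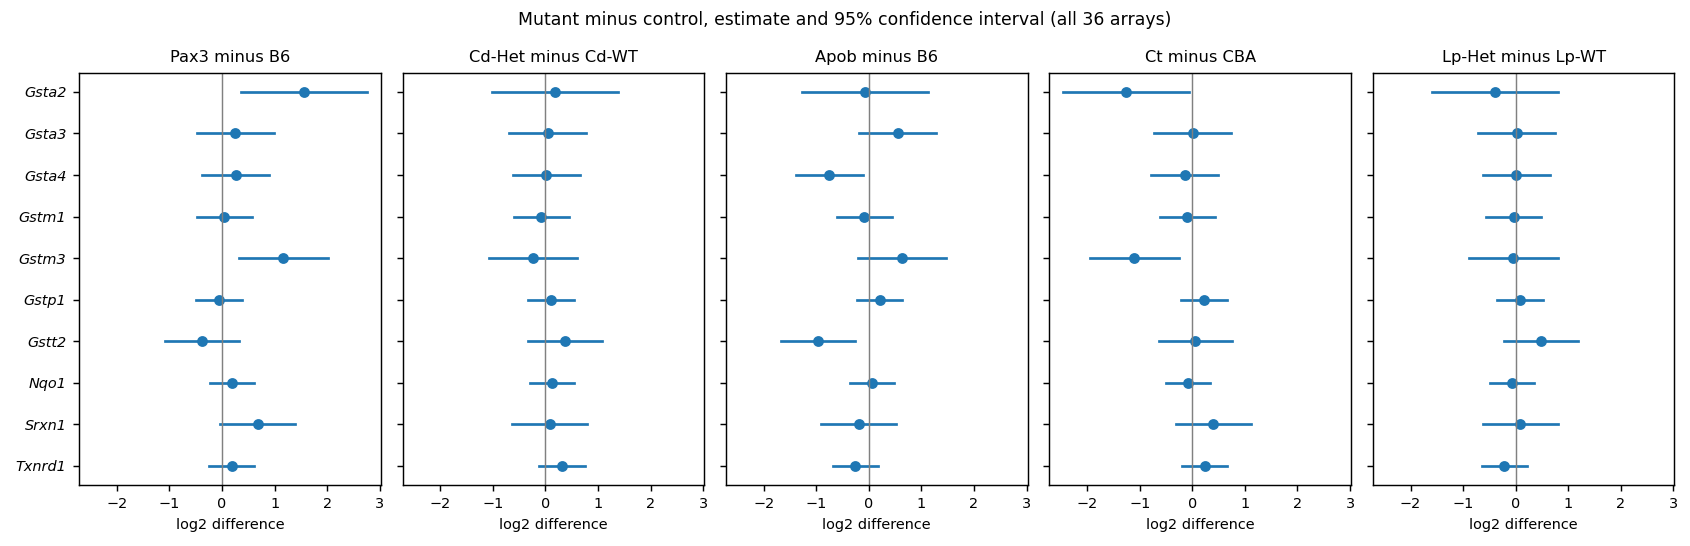
Log2 difference of each gene, mutant minus its own control, with the 95% confidence interval of the limma fit to all 36 arrays. The intervals of Gsta2 are the widest, and 6 of the 50 intervals lie off 0: those of Gsta2 and Gstm3 in Pax3 and in Ct mice, and those of Gsta4 and Gstt2 in Apob mice.

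Among the alpha class genes, Gsta2, whose enzyme reduces lipid hydroperoxides, varied most between mice. Its signal was 3579.9, 1228, 16136 and 1181 in Pax3 mice, against 1257, 1193, 1069 and 666 in B6 mice. Pax3 replicate 3 alone exceeded every other array of the series, and Pax3 replicate 1 was the second highest of 36. The log2 difference was 1.56 ± 0.59 (SE, adjusted p = 0.819), with a 95% interval of 0.36 to 2.76, and it was 0.76 ± 0.53 without Pax3 replicate 3 (adjusted p = 1). In Apob mice the signal was 2072, 377, 2886 and 373, so that 2 mice lay above every B6 mouse and 2 below every one. Their mean differed from that of B6 mice by -0.07 ± 0.59 (adjusted p = 0.987).

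In Ct mice the Gsta2 signal was 699.7, 517, 116 and 322, against 799, 702, 971 and 1008 in CBA mice. All Ct values lay below all CBA values, as in 6.92% of genes in either direction, and the log2 difference was -1.26 ± 0.59 (adjusted p = 0.184). Without Ct replicate 3, the lowest of 36 arrays, and CBA replicate 4 it was -0.71 ± 0.65 (adjusted p = 0.702), and that fit called 0 of the 10 genes in Ct mice and 1.79% of all genes. On Ct replicate 3 the summed Kupffer cell markers were 111500, against 18291 to 25973 on the other Ct arrays, and the lymphocyte markers 4286, against 841 to 1355. Both sums were the highest of 36 arrays. That of sinusoidal endothelial cells was highest too (16680, against 10757 to 15502), but little above the 16501 of an array outside the Ct group. Clec4g, Stab2 and Lyve1 were above their means over the 36 arrays there, while Kdr, Oit3 and Pecam1 were below theirs. The part of these 3 sums in the Ct differences was not tested. Cd-Het mice had 1169, 477, 594 and 1105, against 963, 919.7, 582 and 418 in Cd-WT mice, and the groups overlapped. Lp-Het mice had 1656, 1920.2, 2435 and 1753, against 2734, 3067, 2632 and 1882 in Lp-WT mice. These 2 groups also overlapped, and both lay above the B6, Cd-Het, Cd-WT, Ct and CBA groups, whose highest value was 1257. The share of all genes that lie apart in this way was not counted.

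Gsta3, an alpha class enzyme abundant in mouse liver, had 27940.1, 17002, 26679 and 12466 in Apob mice, against 14074, 14323, 12314 and 13863 in B6 mice. Apob replicates 1, 2 and 3 lay above all B6 mice and replicate 4 among them, and the log2 difference was 0.55 ± 0.36 (adjusted p = 0.632). Apob replicates 1 and 3, the high ones for Gsta2, were also the high ones for Gsta3. In the other 4 mutant lines the log2 difference was between 0.01 and 0.25. The 0.01 was that of Ct mice. Without Ct replicate 3 and CBA replicate 4 their mean signal was 20302, against 19820 in CBA mice. On CBA replicate 4 the 2 probe sets of Gsta3 went opposite ways: the brighter was at 4966, against 19388 to 20544 on the other CBA arrays, while the second was at 20255, against 5643 to 6499.

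Gsta4, which conjugates the lipid peroxidation product 4-hydroxynonenal, had 3283, 1679, 2653 and 1118 in Apob mice, against 3801, 2906, 3809.8 and 3192 in B6 mice. Apob replicates 2, 3 and 4 lay below all B6 mice, and replicate 1 lay among them. On the log2 scale the difference was -0.75 ± 0.31 (adjusted p = 0.338), and the adjusted p was 0.088 once the pair of arrays with doubtful RNA, which belong to neither group, was left out of the fit. In the other 4 lines the log2 difference was between -0.14 and 0.26. The -0.14 was that of Ct mice, and it was 0.36 (not called) without Ct replicate 3 and CBA replicate 4.

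Of the mu class, Gstm3 had 6406, 4189.6, 24386 and 4061 in Pax3 mice, against 3215, 4096, 3796 and 2061 in B6 mice. The log2 difference was 1.17 ± 0.41 (adjusted p = 0.804), with a 95% interval of 0.33 to 2.01, and 0.58 ± 0.36 without Pax3 replicate 3 (adjusted p = 1). Its second probe set gave the same order on that array, with 5254 against 570.4 to 1001 in the other Pax3 mice. In Ct mice the main probe set had 4476, 4081, 792 and 2004, against 3485, 5999, 5492 and 5519.7 in CBA mice. Ct differed from CBA mice by -1.10 ± 0.41 (adjusted p = 0.094) by the main probe set. That difference was -0.55 ± 0.41 without Ct replicate 3 and CBA replicate 4 (adjusted p = 0.618). Gstm3 was called in this comparison without Pax3 replicate 3, where the difference was again -1.10 (adjusted p = 0.0422, against 6.82% of genes), and without Ct replicate 1, where 1438 of the 13188 genes were called. The second probe set had 712, 541, 129 and 238 in Ct mice, against 611, 871, 889.6 and 38 in CBA mice, the last on the array of doubtful RNA. Its difference was smaller, at -0.23 ± 0.59 (adjusted p = 0.855). For the main probe set in Cd-Het, Apob and Lp-Het mice the log2 difference was -0.24, 0.63 and -0.05.

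Gstm1, an abundant mu class enzyme, had log2 differences between -0.09 and 0.05 in the 5 lines. In Ct mice it had 24734, 21964, 9040.5 and 15276, against 18884, 25574, 26077 and 7689.9 in CBA mice, and the lowest value of each group was on its array of doubtful RNA. Without those arrays the means were 20658 in Ct and 23512 in CBA mice. Gstm1 has 4 probe sets, and they disagreed in this comparison. When all probe sets were tested, the dimmest of the 4 was called lower in Ct mice (833, 503, 385 and 525, against 854, 1392, 1326 and 873 in CBA mice). Its log2 difference was -0.97 ± 0.22 (adjusted p = 0.00666), while the other 3 gave -0.75, -0.17 and -0.09 and were not called. That fit called 1161 probe sets in Ct mice. Without Ct replicate 3 and CBA replicate 4 the dimmest probe set averaged 620 in Ct and 1191 in CBA mice (n = 3 each), which was not tested. Mu class genes are close in sequence, and probe sets may read more than 1 of them, which the signals do not resolve.

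Gstp1, the pi class enzyme, had log2 differences of -0.05 in Pax3, 0.11 in Cd-Het, 0.20 in Apob, 0.22 in Ct and 0.09 in Lp-Het mice, each with an SE of 0.21. In Apob mice replicates 1 and 3 were again the high ones, with 42323 and 36761, against 20428 and 19495 on the other pair, and 21388 to 28303 in B6 mice. In Ct mice it had 26879.9, 42107, 48555 and 24312, against 27426, 32301, 28731 and 28781 in CBA mice. Ct replicate 3 was the highest of all 36 arrays. Without it and CBA replicate 4 the means were 31100 in Ct and 29486 in CBA mice.

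Gstt2, a theta class enzyme, had 4483, 2679, 2431 and 2609.8 in Apob mice, against 5011, 5597, 7616 and 5328 in B6 mice. All Apob values lay below all B6 values, as in 9.39% of genes in either direction. Apob differed from B6 mice by -0.97 ± 0.34 (adjusted p = 0.232), with a 95% interval of -1.67 to -0.27. The size was the same without CBA replicate 4 and Ct replicate 3, which are not in this comparison but enter its estimate of the spread, and the adjusted p was then 0.0229. In that fit 2.46% of genes were called, and Gstt2 was the only one of the 10. Without 1 more array of the comparison in turn, the call was lost in 3 of 8 fits (B6 replicate 3, Apob replicate 2 or Apob replicate 3), with adjusted p between 0.0106 and 0.107. The test of a difference among the 5 mutant effects also called Gstt2 without the arrays of doubtful RNA (adjusted p = 0.0367, against 4.06% of genes). Of the summed markers of 8 cell types, 2 did not overlap between these groups. Those of stellate cells were 15754 to 17697 in Apob and 12679 to 15156 in B6 mice, and those of pancreatic acinar cells 3111 to 4064 in Apob and 1753 to 2439 in B6 mice. The acinar sum was mostly Cela1, whose mean over the 36 arrays was 2423, against 7.4 to 285.5 for the other acinar markers. It therefore says little about acinar cells. The part of these sums in the result was not tested. Pax3 mice, set against the same controls, had 4739, 4764, 4614 and 3803. They too lay below every B6 mouse, as in 5.38% of genes, and the log2 difference was -0.38 ± 0.34 (adjusted p = 0.999). The summed hepatocyte markers did not overlap either, at 197310 to 243950 in Pax3 and 260230 to 293190 in B6 mice, and their part in the result was not tested.

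None of the 3 reductases was called. Nqo1, which reduces quinones, had log2 differences between -0.08 and 0.19 in the 5 lines, each with an SE of 0.21. Its signal was 584, 428, 733 and 414 in Pax3 mice, against 407, 485, 539 and 418 in B6 mice. Srxn1, which repairs oxidised peroxiredoxins, had 731, 629, 3835 and 679.9 in Pax3 mice, against 672, 594, 708 and 618 in B6 mice. Its log2 difference was 0.68 ± 0.35 (adjusted p = 0.977), and 0.07 ± 0.26 without Pax3 replicate 3. All 4 Srxn1 probe sets were highest of the Pax3 arrays on that array. Txnrd1, which keeps thioredoxin reduced, had 2762, 2743, 2720.5 and 3088 in Cd-Het mice, against 2700.3, 2082, 2583 and 1817 in Cd-WT mice. These values did not overlap, as in 3.07% of genes, and the log2 difference was 0.31 ± 0.21 (adjusted p = 1). The summed stellate cell markers did not overlap either, at 15317 to 16721 in Cd-Het and 17748 to 18472 in Cd-WT mice, and their part was not tested. The 2 other Txnrd1 probe sets followed the main one weakly (r = 0.203 and 0.283 over 33 arrays).

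Of the 10 genes, 5 were highest of all 36 arrays on Pax3 replicate 3, where 7.36% of tested genes had their highest value. Relative to the mean of the other 3 Pax3 arrays, Gsta2 was higher there by 3.20 on the log2 scale, Srxn1 by 2.46 and Gstm3 by 2.35, while 4.61% of tested genes were higher by more than 1. Gsta4 was higher by 0.93, and Gstm1 and Gstt2 differed by less than 0.1. Gsta3 went the other way, by -0.59. These are values of 1 mouse and have no replicate.

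Of 20 measured other Nrf2 targets, 7 were higher by more than 1 on that array and 1 was lower by more than 1. The 7 included the carbonyl reductase Cbr3 (4.14), the transporter Abcc4 (2.87), Ugdh, which makes UDP-glucuronic acid (1.82), and the haem oxygenase Hmox1 (1.47). The malic enzyme Me1 was lower by more than 1. Other glutathione transferases did not share the pattern: 0 of 14 were higher by more than 1 and 1 was lower. Genes of other programmes were low on the same array, with 6 of 15 targets of the receptors CAR and PXR, 6 of 14 pericentral genes 6 of 9 female-biased and 3 of 6 male-biased genes lower by more than 1, where 2.65% of tested genes were. Of 6 AhR targets, 1 was higher and 1 lower by more than 1.

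Cell type markers moved on Pax3 replicate 3 as well. The summed signal of 8 stellate cell markers was 31900 there, against 11376 to 21817 on the other 35 arrays, and Col1a1, Col1a2 and Col3a1 were each highest of all arrays. The summed hepatocyte markers were lowest of all arrays, at 197310 against 226530 to 422530. The sum of 6 sinusoidal endothelial cell markers was lowest too, at 8196 against 8907 to 16680. Among them, Clec4g (2886 against 4401 to 4612) and Stab2 (1475 against 1675 to 2137) were below the other Pax3 arrays. Lyve1 (1285 against 629 to 779), Pecam1 (372 against 241 to 305) and Oit3 (1225 against 1015 to 1185) were above them, and Kdr lay among them. The sum of 5 pancreatic acinar markers, 3 of which passed the filter on dim probe sets, was also lowest, at 1119 against 1753 to 7082. Most of the acinar sum was Cela1, at 745 against 1375 to 1511 on the other Pax3 arrays. Cela2a was at 58 against 69 to 159, while Prss2, at 293, lay within their 149.8 to 408. The sums for Kupffer cells (43165), cholangiocytes (583), lymphocytes (1169) and erythroid cells (717) lay within the range of the other 35 arrays. Each was nevertheless above the other Pax3 arrays, which had 27693 to 34301, 343 to 469, 730 to 832 and 372 to 482. Of the Kupffer cell markers, Clec4f, Vsig4 and Csf1r lay among the other Pax3 arrays and Timd4 below them. The part of these markers in the result was not tested.

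**Figure D3:**
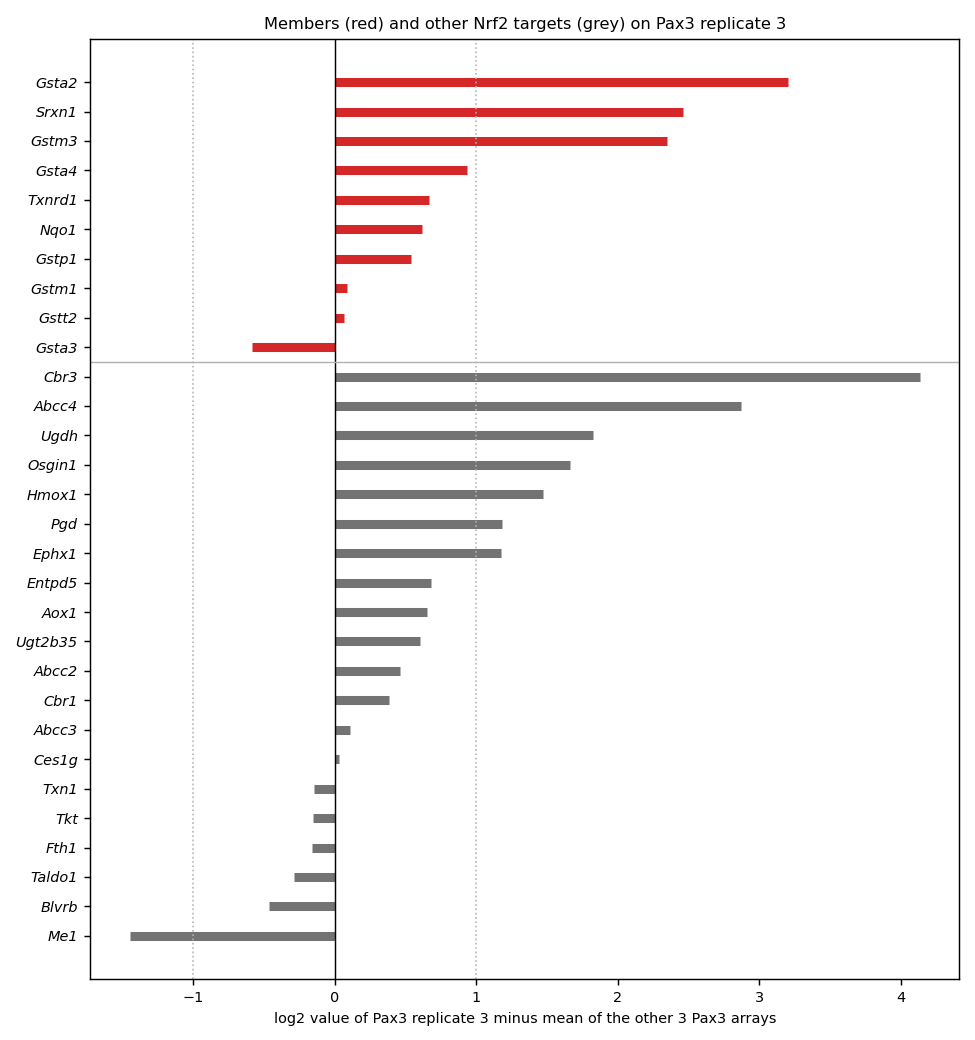
Log2 value of each gene on Pax3 replicate 3 minus the mean of the other 3 Pax3 arrays; red bars are the 10 genes, grey bars the 20 measured other Nrf2 targets, and dotted lines mark -1 and 1. Bars pass 1 for 3 of the 10 genes and 7 of the 20 other targets.

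The 4 wild type groups, which are different stocks, differed in 0 of the 10 genes when all 36 arrays were used, against 10.7% of all tested genes. The lowest adjusted p of that test was 0.0793, for Gsta4, and 3 of the 10 had an unadjusted p under 0.05, as did 27.1% of all tested genes. Among the 6 pairs of wild type groups, 0 of the 10 were called in each. The background was 3.89% for Cd-WT minus B6, 7.73% for CBA minus B6 and 2.08% for Lp-WT minus B6. It was 5.07% for CBA minus Cd-WT, 2.43% for Lp-WT minus Cd-WT and 4.61% for CBA minus Lp-WT. At an unadjusted p under 0.05 the pairs held, in the same order, 1, 2, 2, 3, 4 and 3 of the 10, where the shares of all tested genes were 14.8, 23.5, 13.2, 20.4, 13.4 and 20.4%.

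Without CBA replicate 4 and Ct replicate 3, the same test called 4 of the 10, against 14.6% of all genes: Gsta4 (adjusted p = 0.0146), Gstt2 (0.021), Gsta3 (0.0457) and Gstm3 (0.0499). Gsta4 averaged 6496 ± 792 in Cd-WT mice and 3427 ± 452 in B6 mice (SD, n = 4 each). The log2 difference was 0.92 ± 0.24 (adjusted p = 0.0138, against 7.77% of genes called), the groups did not overlap (as in 17.3% of genes), and the call was lost in 1 of 8 fits with 1 more array left out (B6 replicate 2). Gsta3 averaged 22191 ± 1536 in Cd-WT mice and 13643 ± 906 in B6 mice, also without overlap. Its log2 difference was 0.70 ± 0.19 (adjusted p = 0.0176), lost in 3 of 8 such fits (B6 replicate 3, Cd-WT replicate 1 or Cd-WT replicate 2). Of the summed markers of the 8 cell types, 2 did not overlap between these groups: those of stellate cells, at 17748 to 18472 in Cd-WT and 12679 to 15156 in B6 mice, and those of erythroid cells, at 370.1 to 503 in Cd-WT and 676 to 879 in B6 mice. The erythroid sum was mostly Alas2, whose mean over the 36 arrays was 624.8, against 55 and 77 for the other erythroid markers. The part of these sums in these results was not tested.

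The other calls between wild type groups were near the threshold. Gstm3 was higher in CBA than in Cd-WT mice by 1.29 ± 0.39 (adjusted p = 0.0441), where Cd-WT mice had 2124, 1869, 1929 and 1998, and the call was lost in 6 of 7 fits without 1 more array (every Cd-WT replicate, CBA replicate 2 or CBA replicate 3). Gsta2 was higher in Lp-WT than in Cd-WT mice by 1.86 ± 0.57 (adjusted p = 0.0475), lost in 8 of 8. Gsta4 was lower in Lp-WT than in Cd-WT mice, with a log2 difference of -0.81 ± 0.24 (adjusted p = 0.041), lost in all of 8 except the one without Lp-WT replicate 1. Gstt2 was lower in Lp-WT than in B6 mice, with a log2 difference of -0.80 ± 0.24 (adjusted p = 0.0443), lost in all of 8 except the one without Lp-WT replicate 4. It was higher in CBA than in Lp-WT mice by 0.97 ± 0.26 (adjusted p = 0.0274), lost in 4 of 7 (CBA replicate 1 or 3, Lp-WT replicate 2 or 3). The shares of all genes called in these pairs were 5.27% for CBA minus Cd-WT, 5.44% for Lp-WT minus Cd-WT, 5.42% for Lp-WT minus B6 and 3.41% for CBA minus Lp-WT. Between CBA and B6 mice 0 of the 10 were called, against 6.1%. Summed markers did not overlap for 3 of the 8 cell types between CBA and Cd-WT mice (Kupffer, stellate and pancreatic acinar cells) and for 2 between Lp-WT and Cd-WT mice (stellate and erythroid cells). They did not overlap for Kupffer cells between Lp-WT and B6 mice, at 20747 to 27210 against 30571 to 43801, or for erythroid and pancreatic acinar cells between CBA and Lp-WT mice. As above, the acinar sum was mostly Cela1 and the erythroid sum mostly Alas2. The part of these sums in these calls was not tested.

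**Figure D4:**
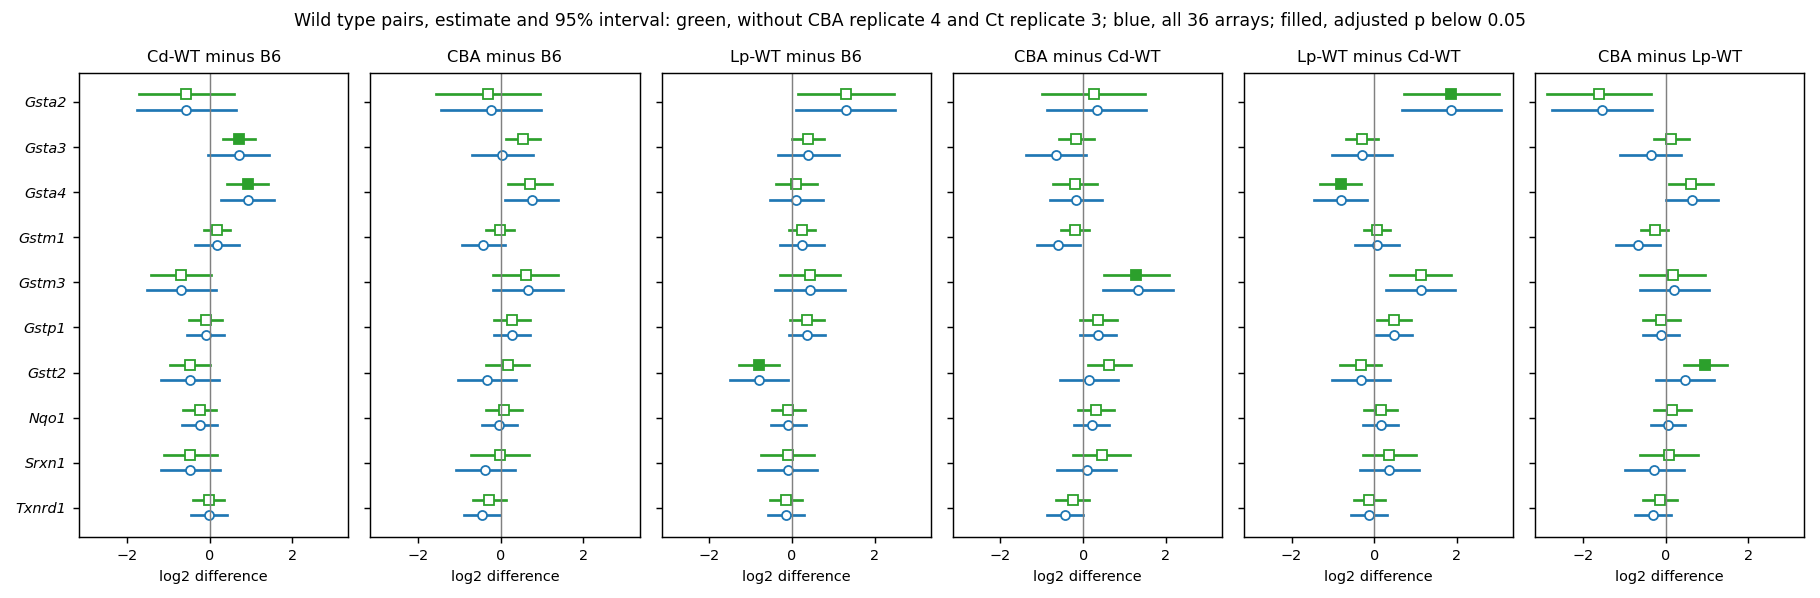
Log2 difference of each gene between pairs of wild type groups with its 95% confidence interval; green squares leave out CBA replicate 4 and Ct replicate 3, blue circles use all 36 arrays, and filled symbols have an adjusted p under 0.05. The 7 filled symbols are all green and belong to Gsta2, Gsta3, Gsta4, Gstm3 and Gstt2.

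In the order of the 4 wild type groups, Gsta2 was highest in Lp-WT mice, and the B6, CBA and Cd-WT groups overlapped below it. With all 36 arrays it was not called in Lp-WT against B6 (adjusted p = 0.325), Cd-WT (0.0937) or CBA mice (0.133). Groups often lie apart without a call, as 17.3% of all genes did between Cd-WT and B6 mice, and the shares for the other pairs are not given here. Gsta4 was high in Cd-WT and CBA mice, which overlapped, and low in Lp-WT and B6 mice, which overlapped. Gstm3 was lowest in Cd-WT mice, whose 4 values lay within 1869 to 2124, although B6 replicate 4, at 2061, fell among them. Cd-Het mice, of the same line, had 1631, 1676, 1425 and 2005.

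Of 14 other glutathione transferases tested, 1 was called in Ct mice, where 6.65% of all genes were, and 0 in Pax3, Cd-Het, Apob and Lp-Het mice. The call was Gsto1, an omega class enzyme, lower in Ct mice with a log2 difference of -1.11 ± 0.24 (adjusted p = 0.00428). Of 9 genes for Nrf2 itself, its regulators and relatives, Nfe2l1, a relative of Nrf2, rose in Ct mice by 0.86 ± 0.23 (adjusted p = 0.021). Of 12 genes of glutathione synthesis and turnover, the glutathione peroxidases Gpx3 (1.56 ± 0.43) and Gpx1 (0.57 ± 0.16) rose in Ct mice. Of 20 other Nrf2 targets, Blvrb rose by 0.92 ± 0.25 and Ugt2b35 fell by 0.98 on the log2 scale in the same mice. None of these 4 lists had a called gene in the other 4 lines. Without CBA replicate 4 and Ct replicate 3, Gsto1 was still called (-1.02 ± 0.19, adjusted p = 0.00104) and the other 5 were not. In lists of other liver programmes, 2 of 15 CAR and PXR targets were called in Ct mice (Cyp3a13, 2.18 ± 0.25, and Aldh1a7, -0.90 ± 0.22), as were 1 of 14 pericentral, 1 of 6 male-biased and 1 of 9 female-biased genes, against the same 6.65% of all genes. These calls in other programmes are not given without CBA replicate 4 and Ct replicate 3. In Apob mice 2 of 9 female-biased genes fell, where 0.538% of all genes were called in either direction, and 0 of 6 AhR targets were called in any line.

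Among wild type groups, Gstp3, a pi class relative of Gstp1, was called in 3 pairs. It averaged 33707 in Cd-WT mice and 1261 in B6 mice, and the log2 difference was 4.75 ± 0.32 (adjusted p = 7.96e-13, against 3.89% of all tested genes called). It was lower in CBA and in Lp-WT than in Cd-WT mice by differences of -4.37 ± 0.32 and -4.29 ± 0.32, where 5.07 and 2.43% of all tested genes were called. Gstp1 differed between Cd-WT and B6 mice by -0.10 ± 0.21 (adjusted p = 0.903). The epoxide hydrolase Ephx1, a Nrf2 target, was lower in CBA than in B6 mice with a log2 difference of -2.08 ± 0.29 (adjusted p = 6.99e-06, against 7.73% of all tested genes called). The differences with CBA mice in this paragraph rest on all 4 CBA arrays, replicate 4 among them, and are not given without it.

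Spread between mice of 1 group differed among the 10 genes. The pooled standard deviation within groups was 0.92 on the log2 scale for Gsta2, larger than that of 99.3% of tested genes, and 0.64 for Gstm3 (91.9%). It was 0.29 for Nqo1 (25.7%), where the median gene had 0.36. Without Pax3 replicate 3, CBA replicate 4 and Ct replicate 3, Gsta2 still had 0.72 (97.3%) while Srxn1 came to 0.24 (29.3%). Over those 33 arrays, deviations from the group mean correlated most for Gstm1 with Gstm3 (r = 0.81), Gsta2 with Gsta3 (0.784) and Gsta4 with Gstp1 (0.69). These are descriptions over mice that share groups and arrays, and related genes may share probes.

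The genes whose levels over the 36 arrays were most like a member's were, for Gsta2, Gstm3 itself (r = 0.707, and 0.471 over the 33 arrays) and the cytochrome P450 gene Cyp2c55 (0.68). For Gstm3 the closest was Cyp2c55 (0.82, and 0.70 over the 33 arrays). For Gsta4 they were Smyd2 (0.80, and 0.868 over the 33 arrays) and the sulfotransferase Sult2a2 (0.745). For Nqo1 the closest was Pir (0.628), and for Srxn1 it was Tpm1 (0.851, and 0.657 over the 33 arrays).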

How the data were processed

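Total RNA of 36 livers, 9 groups of 4, was labelled and hybridised to 1-colour Affymetrix mouse arrays. The deposited values are linear intensities (MAS5 signal, per the submitters' processing notes), and their mean after trimming 2% at each end was 500 on every array, so they had been scaled before deposit. Arrays carry no read depth, and their number limits the precision. Probe sets with 1 gene symbol (34945) were kept, those with several (932) or none (9160) and 64 controls were not. An offset, the 20th percentile of all signals (23.1), was added and log2 taken. Genes above the 40th percentile of mean values (signal 61.7) were tested by their brightest probe set. limma 3.58.1 in R 4.3.3 fitted 1 mean per group over all arrays (eBayes with an intensity trend, two-sided, Benjamini-Hochberg over 13188 genes). The fit was tested on simulated data.

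The members, gene lists (other transferases, Nrf2 and its regulators, glutathione synthesis and turnover, other Nrf2 targets, CAR and PXR targets, AhR targets, pericentral genes, sex-biased genes) and alternatives were chosen with earlier results of these data known. All members are named; from other lists, up to 4 called genes with the largest difference in a comparison; and the 3 genes most like a member by Pearson correlation, of which some are printed.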

Additional observations from a re-analysis of the deposited data

Results flagged for a closer look

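Within a group of 4 arrays, a value was singled out where its gap to the nearest other array exceeded Dixon's 95% critical share of the group's range. Of 90 groups of values, 8 met this, and chance gives about 1 in 20. Srxn1 was high on Pax3 replicate 3, at 3835 against 629 to 731 on the other Pax3 arrays. Gsta3 was low on Ct replicate 3, at 4752 against 18839 to 22339, and on CBA replicate 4, at 4966 against 19388 to 20544, the arrays of doubtful RNA. Gstt2 was high on Apob replicate 1, at 4483 against 2431 to 2679, low on Pax3 replicate 4, at 3803 against 4614 to 4764, and low on Cd-WT replicate 4, at 2538 against 4799 to 5162. Gstm3 was low on CBA replicate 1, at 3485 against 5492 to 5999. Txnrd1 was high on Cd-Het replicate 4, at 3088 against 2720.5 to 2762.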

How the results depend on the processing

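With all arrays and the settings above, the count of called members was 0 in each of the 5 mutant comparisons, among the 5 mutant effects, among the 4 wild type groups and in the 6 wild type pairs. With array weights it was 2 in Apob (Gsta4, Gstt2), 1 in Ct (Gstm3), 3 among the mutant effects, 5 among the wild type groups and 5 in the pairs. In Apob, in Ct, among the mutant effects and among the wild type groups, that fit called 726, 738, 1476 and 3944 of the 13188 genes. Without CBA replicate 4 and Ct replicate 3 it was 1 in Apob (Gstt2), 1 among the mutant effects, 4 among the wild type groups and 5 in the pairs. In Apob, among the mutant effects and among the wild type groups, 324, 536 and 1921 genes were called. Leaving out Pax3 replicate 3 as well gave 1, 1, 5 and 5 members, where 387, 487 and 2118 genes were called outside the pairs. Without Pax3 replicate 3 alone it was 1 in Ct (Gstm3, with 899 genes called), 2 among the wild type groups (1460 genes called) and 2 in the pairs (Gsta2, Gstm3). All probe sets gave 1 in Ct (Gstm1, with 1161 probe sets called), the stricter filter 1 in the pairs (Gstm3), and the 8 compared arrays alone 1 in Apob (Gstt2, with 184 genes called). The 16 wild type arrays alone gave 3 among the wild type groups (1106 genes called) and 3 in the pairs (Gsta2, Gsta4, Gstm3). With 1 array left out in turn, counts ranged from 0 to 0 in Pax3, Cd-Het, Apob, Lp-Het and the mutant effects. They ranged from 0 to 1 in Ct (1 without Ct replicate 1, with 1438 genes called, or without Pax3 replicate 3). Among the wild type groups they ranged from 0 to 2 (2 without Pax3 replicate 3, as above). In the pairs they also ranged from 0 to 2 (1 without CBA replicate 1). How many of all genes were called in at least 1 pair was not counted, so all counts in the pairs stand without that share. The cause of these changes was not tested, beyond that array weights and left-out arrays change the estimate of spread. The replicate block gave 0 members in every comparison. Whether replicate numbers pair the mice was not settled. Of 20 same-numbered correlations, 4 exceeded 0.1 (-0.141 to 0.203), and 10 of 20 mutant arrays were best with their own number among 4 control arrays. Of 2447 alternative values of single differences, 48 became called with the sign of the main fit and 0 became called with the opposite sign. A further 123 that stayed uncalled changed sign. Since the main fit called no difference, none that it called could reverse. Quantile normalization, median centring, both offsets, no filter, no intensity trend and probe sets without shared-target suffixes left every count at 0, the last with no probe set left for Gsta2, Gstp1 and Txnrd1. The fits without Pax3 replicate 3, and those leaving out 1 more array beside CBA replicate 4 and Ct replicate 3, were chosen after seeing the data.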
